A study of Mus musculus with 2 samples.

Results

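The genes that add methyl groups to cytosine in DNA and those that take part in removing them were followed in RNA-seq libraries labelled as mouse retina. The 10 genes were those of 52636 in the deposited tables with the symbols Dnmt1, Dnmt3a, Dnmt3b, Tet1, Tet2, Tet3, Tdg, Uhrf1, Mbd4 and Gadd45a, and each symbol matched 1 row in both tables. They were split by prior knowledge into 6 genes named as targets of the microRNA miR-29 (Dnmt3a, Dnmt3b, Tet1, Tet2, Tet3 and Tdg) and the other 4. The study compared C57BL/6 mice of 8 weeks, wild-type (WT) or lacking miR-29a (KO). Each genotype gave 1 library, made from retinas of 3 mice put together, so neither genotype has a replicate. The labels do not give the construct of the deletion or the sex of the mice. With 1 library per group no p-value was computed, the intervals below cover counting error only, and every difference is between these 2 libraries and not shown to be one between genotypes.

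DNA methyltransferases place a methyl group on cytosine, mostly where it precedes guanine. DNMT3A and DNMT3B set new marks, and DNMT1 copies existing ones to the new strand after replication, guided there by UHRF1, which recognises hemimethylated sites. TET dioxygenases oxidise methylcytosine in steps, and the glycosylase TDG cuts out the most oxidised forms, which base excision repair then replaces with plain cytosine. MBD4 is a further glycosylase for mismatches at methylated sites. GADD45A is not an enzyme but a stress-induced adaptor that has been linked to demethylation through repair. MicroRNAs of the miR-29 family bind the 3' UTR of their target transcripts through the seed, bases 2 to 8, and lower the transcript or its translation.

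The libraries labelled WT and KO held 26805902 and 24876925 counts, and counts scaled to these totals are given as CPM. Where a gene had 0 counts, 3 counts were still possible, or 0.112 and 0.121 CPM. The precursor genes Mir29a and Mir29b-1 had 0 counts in each, so the deleted gene checks neither label. The contents went against the tissue label for neurons: 15 of 17 markers of retinal neurons lay under 1 CPM in either library, 7 of them at 0 counts in both, while 9 fibroblast markers ranged from 417 to 10946 CPM under the label WT and from 589 to 10549 under the label KO. Of 7 markers of Mueller glia, the supporting cells of the retina, 4 passed the minimum, all of them also expressed elsewhere (Apoe, 452 and 439.7 CPM, Clu, 325 and 229, Glul, 139 and 170, and Slc1a3, 24.0 and 20.3), while Rlbp1 had 24 and 11 counts, Kcnj10 0 and 5 and Aqp4 0 in each. The libraries also differed in sex-linked RNA, with 4288 and 0 counts of Xist and 30 and 310 of the Y-linked gene Kdm5d. The libraries are therefore called by their labels throughout.

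The mature miR-29 sequences are given first because their shared seed defines the sites searched for in the 10 genes. The sequences are from RefSeq (GRCm38.p6), 5′ to 3′, with the seed in capitals. The gene of miR-29a, the one deleted per the labels, lies on the minus strand of chromosome 6 (mature form at chr6:31062673-31062694). The miR-29b and miR-29c forms carry the same seed.
miR-29a-3p: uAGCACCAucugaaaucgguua
miR-29b-3p: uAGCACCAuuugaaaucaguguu
miR-29c-3p: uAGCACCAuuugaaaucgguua

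All 6 genes named as targets held the heptamer TGGTGCT, the reverse complement of the seed, in their longest annotated 3' UTR (GENCODE M21, GRCm38, transcript strand only), and the other 4 genes held neither it nor the shorter match GGTGCT. Tet3 had 8 heptamers in a 3' UTR of 5669 bases, Tet1 7 in 7962, Dnmt3a 5 in 6696, Tet2 5 in 3058, Tdg 3 in 2079 and Dnmt3b 1 in 1331. Among 3' UTRs within 20% of the same length, the share with a heptamer was 42.4% for the length of Tet3, 51.5% for Tet1, 46.1% for Dnmt3a, 26.4% for Tet2, 18.7% for Tdg and 12.0% for Dnmt3b. Of 21021 protein-coding genes with an annotated 3' UTR, 11 held 5 or more heptamers, and 4 of the 11 were Dnmt3a, Tet1, Tet2 and Tet3. The 3' UTRs without a match were shorter: 312 bases in Dnmt1, 563 in Gadd45a, 984 in Uhrf1 and 1788 in Mbd4, lengths at which 3.54%, 6.48%, 9.54% and 15.8% of 3' UTRs held a heptamer. A heptamer followed by A is called an 8-mer, the longest seed match counted. Dnmt3a, Tet2 and Tet3 had 2 of these, Tet1 and Tdg 1 and Dnmt3b 0. The 8-mers of these genes, and the heptamer of Dnmt3b, are shown with the bases that precede them, where pairing with the rest of the microRNA would fall. Capitals mark the seed match. The sites lie in exonic 3' UTR at chr10:82649663-82649685 (Tdg, plus strand), chr12:3911391-3911413 and chr12:3911460-3911482 (Dnmt3a, plus), chr2:153686612-153686634 (Dnmt3b, plus), chr10:62806041-62806063 (Tet1, minus), chr3:133466172-133466194 and chr3:133465115-133465137 (Tet2, minus), and chr6:83364335-83364357 and chr6:83363776-83363798 (Tet3, minus). A match is a description of the sequence, and binding was not measured.
Tdg 8-mer: tcatgcattttccaTGGTGCTAc
Dnmt3a first 8-mer: ccaggggaggtagcTGGTGCTAg
Dnmt3a second 8-mer: gcggggtcccaagcTGGTGCTAa
Dnmt3b heptamer: tagagtagcccggcaTGGTGCTc
Tet1 8-mer: tttcttgaaggagaTGGTGCTAg
Tet2 first 8-mer: gtgttaacattaaaTGGTGCTAc
Tet2 second 8-mer: aattcacatcacgaTGGTGCTAc
Tet3 first 8-mer: aatagtctaataaaTGGTGCTAt
Tet3 second 8-mer: aggccgcttttagtTGGTGCTAa

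**Figure D1:**
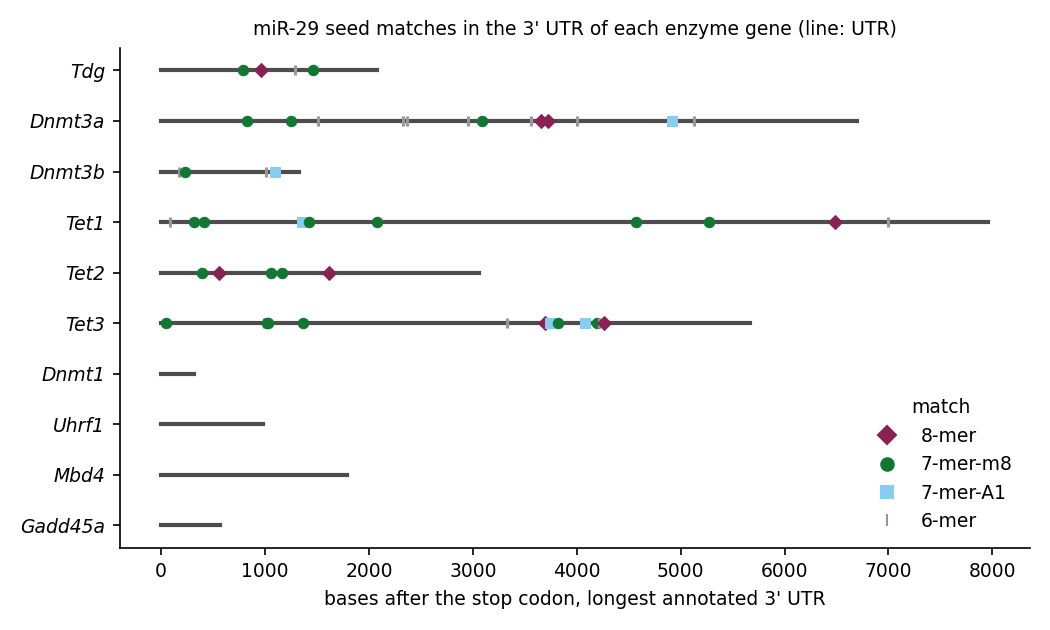
Positions of miR-29 seed matches, in bases after the stop codon, along the longest annotated 3' UTR of each gene (dark line). Diamonds are 8-mers, circles other heptamers, squares GGTGCTA matches without the preceding T, and grey ticks GGTGCT alone; the 6 genes at the top are those named as targets and the 4 at the bottom hold no match.

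Levels were compared between genes on the authors' FPKM scale, which divides by length. In the library labelled WT the order ran from Gadd45a (11.8 FPKM, counting interval 10.8 to 12.9) and Dnmt1 (10.7, 10.3 to 11.2), whose intervals overlap, through Uhrf1 (6.27) to Dnmt3a (1.35), Tet3 (1.17), Tdg (0.925) and Mbd4 (0.770), and then to Tet2 (0.349), Dnmt3b (0.178) and Tet1 (0.123). The intervals of Dnmt3a and Tet3, of Tet3 and Tdg, of Tdg and Mbd4, and of Dnmt3b and Tet1 overlap too. In the library labelled KO the order was the same for 9 of the genes, and Tdg stood in place 4 instead of 6. The length behind the FPKM tracked the union of annotated exons, which for Dnmt3a is 16642 bases against 9685 in its longest transcript, so genes with much annotated sequence outside that transcript are placed low. Per kilobase of the longest transcript instead, Dnmt3a stood at 2.20 CPM and Dnmt1 at 12.8 in the library labelled WT. In the library labelled KO, Tdg stood at 4.96 and Uhrf1 at 4.81 on that scale, so the place of Tdg depends on the length used. The shares of FPKM given below for the methyltransferases and the TET genes depend on it too.

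**Figure D2:**
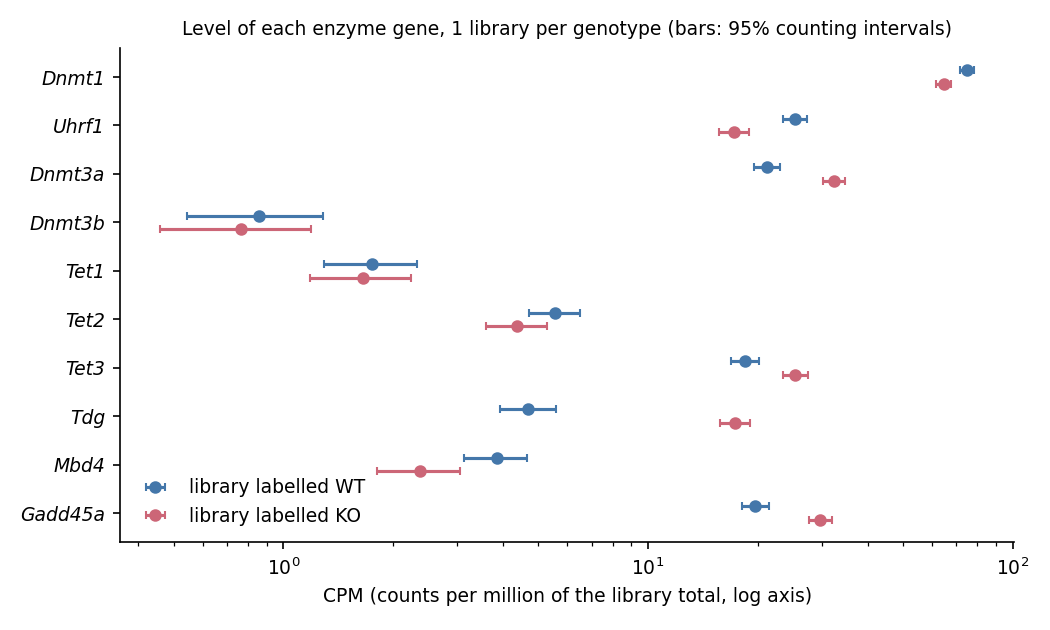
CPM of each gene (log axis) in the library labelled WT (blue) and the library labelled KO (red), with 95% exact counting intervals. Dnmt1 is highest in both, Dnmt3b and Tet1 lie near 1 CPM, and Tdg moves from 4.70 to 17.4 CPM.

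The maintenance pair was lower in the library labelled KO, by less than 2-fold. Dnmt1 (ENSMUSG00000004099, chr9:20907209-20959888, GRCm38) had 2008 and 1608 counts in the libraries labelled WT and KO, or 74.9 and 64.6 CPM, 1.16-fold lower in the latter (counting interval 1.08 to 1.24). Uhrf1 (chr17:56303321-56323486) had 677 and 429 counts, or 25.3 and 17.2 CPM, 1.46-fold lower (1.30 to 1.66). Neither interval reached 1, and the log2 ratios, taken after adding 0.5 CPM, were -0.21 and -0.54 against a median of 0.06 over the 12382 genes that reached 50 counts in at least 1 library. The count ratio of Uhrf1 to Dnmt1, which no scaling of the libraries can alter, was 0.337 and 0.267, lower by a factor of 0.791 (0.688 to 0.910). Its paralogue Uhrf2, which binds hemimethylated DNA too but does not replace UHRF1 in maintenance, had 2214 and 2402 counts, so Uhrf1 relative to Uhrf2 stood at 0.306 and 0.179. A processed copy of Uhrf1, Gm5648 on chromosome X, shares 14.7% of its 50-base windows but had 0 and 1 counts.

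Of the enzymes that set new marks, Dnmt3a was higher in the library labelled KO and Dnmt3b was too low to compare. Dnmt3a (ENSMUSG00000020661, chr12:3806007-3914443) had 570 and 807 counts, or 21.3 and 32.4 CPM, 1.53-fold higher (1.37 to 1.70). Against Dnmt1 in the same library its counts stood at 0.284 and 0.502, a shift of 1.77-fold (1.56 to 2.01). By FPKM, Dnmt3a made up 11.01% of the 3 methyltransferases under the label WT and 17.95% under KO, while Dnmt1 made up 87.5% and 80.7%. Dnmt3b (chr2:153649450-153687730) had 23 and 19 counts, under the minimum of 50, and its ratio of 0.890 has an interval from 0.458 to 1.71. The cofactor gene Dnmt3l, which has no catalytic activity of its own and is known from germ cells, had 144 and 129 counts. Dnmt3c, a rodent copy of Dnmt3b next to it on chromosome 2 that shares 9.80% of Dnmt3b's 50-base windows, had 0 in each.

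Among the TET genes, Tet3 was higher in the library labelled KO by less than 2-fold, and the intervals of Tet2 and Tet1 included equality. Tet3 (ENSMUSG00000034832, chr6:83362373-83459084), the most abundant of the 3, had 494 and 630 counts, or 18.4 and 25.3 CPM, 1.37-fold higher in the library labelled KO (1.22 to 1.55). Tet2 (chr3:133463679-133545139) had 149 and 109 counts, or 5.56 and 4.38 CPM, a ratio of 0.788 whose interval, 0.610 to 1.02, includes 1. Tet1 (chr10:62804570-62908996) had 47 and 41 counts, under the minimum, and a ratio of 0.940 (0.603 to 1.46). The count ratio of Tet3 to Tet2 was 3.32 and 5.78, a shift of 1.74-fold (1.31 to 2.32). Of the summed FPKM of the family, 1.64 and 1.92, Tet3 gave 71.2% and 80.4%, Tet2 21.3% and 13.8%, and Tet1 7.51% and 5.80%.

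Tdg was the 1 gene of the 10 past 2-fold, and its value depends on how reads were shared with a near-identical copy. Tdg (ENSMUSG00000034674, chr10:82629828-82650799, plus strand) had 126 and 432 counts, or 4.70 and 17.4 CPM, 3.69-fold higher in the library labelled KO (3.02 to 4.54), a log2 ratio of 1.78. Of the 12382 genes past the minimum, 4.47% were higher by 2-fold or more, 2.82% lower and 7.29% either. Its copy Gm9855, annotated as a processed pseudogene (chr10:42054113-42055306, minus strand), moved the other way, with 95 and 9 counts, 9.80-fold lower (4.95 to 22.1). Of the 50-base windows in the transcript of Gm9855, 76.5% occur letter for letter in annotated transcripts of Tdg, and 61.3% of its 100-base windows do. Of the reads given to either gene, Tdg took 57.0% (exact interval 50.2% to 63.6%) in the library labelled WT and 97.96% (96.2% to 99.1%) in the library labelled KO. Counted together, the 2 genes had 221 and 441 counts, or 8.24 and 17.7 CPM. The sum was 2.15-fold higher in the library labelled KO (1.83 to 2.54), a log2 ratio of 1.06. The sum stayed past 2-fold by its value, but its interval no longer lay wholly beyond 2. The tables do not say which reads fell in shared sequence, so the fold for Tdg alone is uncertain, and these values do not bound it. Further copies had few counts: Gm5597 on chromosome 7 had 3 and 2 and the full-length copy Tdg-ps on chromosome 15 had 0 and 1. The 3' end of Tdg overlaps the opposite-strand gene Glt8d2 over 367 exon bases. Glt8d2 had 102 and 77 counts, and the library kit does not mark strand.

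**Figure D3:**
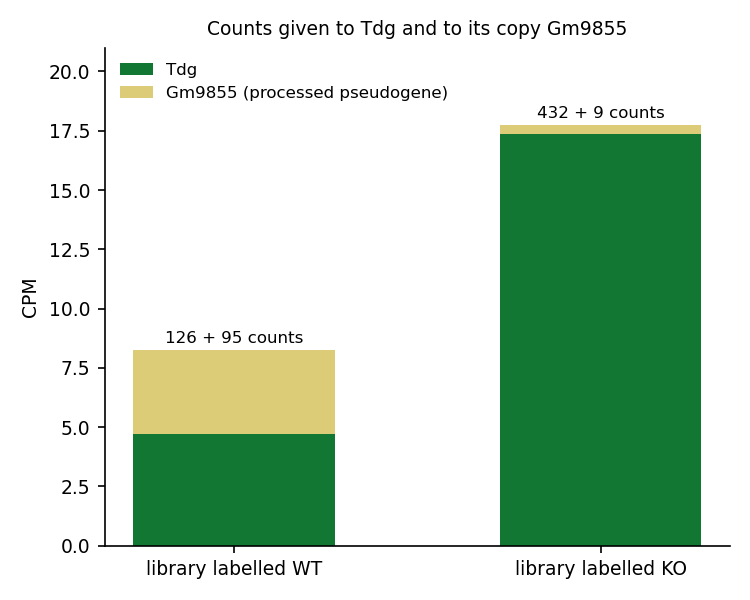
CPM given to Tdg (green) and to its processed copy Gm9855 (yellow), stacked, in each library; numbers above the bars are counts of Tdg plus Gm9855. The copy holds 43.0% of the pair's counts under the label WT against 2.04% under KO, and the sum is 2.15-fold higher in the latter.

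The other glycosylase gene went the opposite way. Mbd4 (ENSMUSG00000030322, chr6:115840697-115853371) had 103 and 59 counts, or 3.84 and 2.37 CPM, 1.62-fold lower in the library labelled KO (1.17 to 2.27). Set against Mbd4, the counts of Tdg stood at 1.22 and 7.32, a shift of 5.99-fold (4.04 to 8.89), which carries the uncertainty of Tdg. Gadd45a (ENSMUSG00000036390, chr6:67035096-67037457) had 528 and 739 counts, or 19.7 and 29.7 CPM, 1.51-fold higher (1.35 to 1.69). Its relatives stood on either side: Gadd45b had 752 and 835 counts, 1.196-fold higher (1.08 to 1.32), and Gadd45g 527 and 351, 1.39-fold lower (1.22 to 1.60). After the correction for GC content and length described below, their log2 ratios were 0.48 and -0.11, against 0.45 for Gadd45a. Gadd45a relative to Gadd45g stood at 1.002 and 2.105. Gadd45a overlaps the opposite-strand transcript E230016M11Rik over 337 exon bases, which had 6 and 2 counts.

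Set side by side, the genes named as targets tended to stand above the others, with exceptions in each set. Of the 10 genes, 8 passed the count minimum. Of the 4 targets that passed, Tdg, Dnmt3a and Tet3 had log2 ratios above 0 (1.78, 0.60 and 0.45) and Tet2 below (-0.31), with a median of 0.52. Of the 4 others, Gadd45a stood above 0 (0.58) and Dnmt1, Uhrf1 and Mbd4 below (-0.21, -0.54 and -0.60), with a median of -0.37. With Dnmt3b (-0.10) and Tet1 (-0.07) taken in, the median of the 6 targets was 0.19. Past 2-fold, 1 of 8 was higher and 0 were lower, where 4.47% of all genes were higher and 2.82% lower. At 1.5-fold (0.58 on the log2 scale) 2 were higher, Tdg and Dnmt3a, and 1 was lower, Mbd4, where 13.3% and 8.88% of all genes were, 22.2% in either direction. Dnmt3a (0.598) lay just inside that threshold of 0.585 and Gadd45a (0.581) just outside. The calls at 1.5-fold other than that of Tdg depended on the setting. Dnmt3a was under it with TMM scaling (0.57), median-of-ratios scaling (0.53), 2 CPM added (0.57) and FPKM (0.42), and Mbd4 with 2 CPM added (-0.42) and FPKM (-0.41). Gadd45a was past it with 0.1 CPM added (0.59) and Uhrf1 with median-of-ratios scaling (-0.60). With so few genes and no replicate, the medians describe these rows and carry no test.

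**Figure D4:**
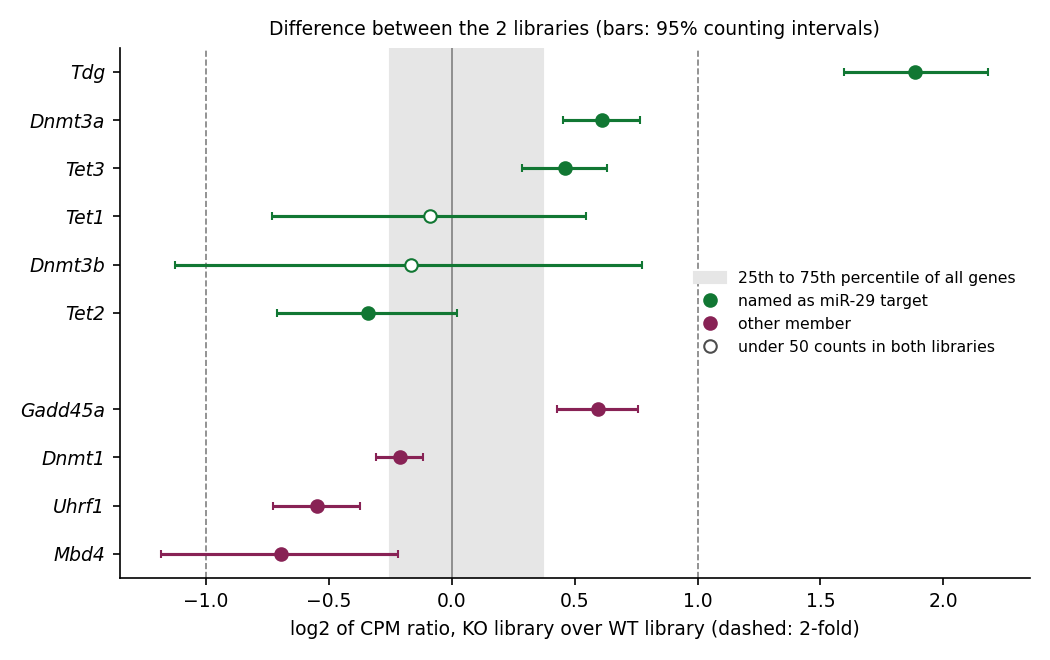
Log2 of the CPM ratio, library labelled KO over library labelled WT, with 95% exact counting intervals, for the 6 genes named as miR-29 targets (green) and the 4 others (purple); open circles had under 50 counts in both libraries. The grey band spans -0.25 to 0.37, the 25th to 75th percentile of all genes with 50 or more counts, and dashed lines mark 2-fold; Tdg alone has an interval wholly beyond 2-fold.

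Base composition moved with the difference between the libraries: across 12371 genes, which are not independent replicates, the log2 ratio had a Spearman's rho of -0.44 with transcript GC content, and the median fell from 0.31 in the tenth of genes with the lowest GC to -0.31 in the highest. The 10 genes run from 43.7% GC in Tet1 and 43.8% in Mbd4 to 54.0% in Dnmt1. The correction for GC content and length subtracted the median of the tenth of genes of like GC content. From what remained it subtracted the median of the tenth of like transcript length, so genes were not matched on both together. After it, the log2 ratios were 1.55 for Tdg, 0.64 for Dnmt3a, 0.49 for Tet3, 0.45 for Gadd45a, -0.08 for Dnmt1, -0.55 for Uhrf1, -0.56 for Tet2 and -0.97 for Mbd4. No sign changed among these 8. The corrected value of Dnmt1 was near 0, and those of Tet2 and Mbd4 were further below 0 than before.

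The partner genes of the 10 were read from lists of the pathway. Over all genes past the minimum, 4.47% were 2-fold higher and 2.82% lower. Among 11 maintenance and cofactor genes past it, 1 was 2-fold higher in the library labelled KO and 0 were lower, and the median was 0.12. The 1 was Hells, a remodeller needed for methylation of repeats, on 38 and 85 counts (2.41-fold, 1.63 to 3.63), which passed the minimum only through the library where it was higher. In the same list the imprint protector gene Zfp57 was 1.96-fold lower (1.44 to 2.69). After the GC and length correction Hells was no longer past 2-fold (log2 ratio 0.71) and Zfp57 was (-1.09), so that 0 were higher and 1 was lower. The list also holds the ligase gene Lig1, which joins the new strand in replication and was 1.54-fold lower (1.36 to 1.75). The replication clamp gene Pcna, to which DNMT1 binds, was 1.47-fold higher (1.37 to 1.57), and the corepressor gene Trim28, the most abundant of the list at 80.6 and 62.7 FPKM, had a log2 ratio of -0.31. Methyl-CpG readers had 0 of 9 past 2-fold in either direction and log2 ratios from -0.27 for Mbd6 to 0.28 for Mbd2 (0.50 after the correction). Mbd3, a subunit of the NuRD complex, was the most abundant reader (127 and 108 FPKM).

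Genes around the TET reaction stood mostly above 0, 9 of 12 against 6807 of 12382 over all genes, with a median of 0.33 and 0 past 2-fold. Idh3a (log2 ratio 0.57) and Idh1 (0.33), isocitrate dehydrogenase genes of the route to 2-oxoglutarate, the cofactor of the TET enzymes, stood above 0 and Idh2 (-0.49) below. Cul4b, a ubiquitin ligase scaffold, had 0.54 and its partner Ddb1, the most abundant of the list, -0.14. With GC and length taken off, the median of this list was 0.11. The other dioxygenases listed that use the same cofactor are mostly histone and nucleic acid demethylases. They spanned -0.23 (Kdm6b) to 0.33 (Kdm3a), with 0 of 13 past 2-fold and a median of -0.02.

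Base excision repair, which completes what TDG starts, had 7 of 14 genes above 0, 7 below and 0 past 2-fold. Over all genes 6807 of 12382 stood above 0. The median of the list was -0.05, and -0.15 after the GC and length correction, which left more of the 14 below 0 than above. The repair scaffold gene Xrcc1 had 1729 and 926 counts, 1.73-fold lower in the library labelled KO (1.60 to 1.88). The glycosylase genes Nthl1 (1.64-fold, 1.44 to 1.88) and Mutyh (2.35-fold on 76 and 30 counts, 1.52 to 3.72, log2 ratio -0.97 with 0.5 CPM added) were lower too. The endonuclease gene Apex1, the most abundant of the list, had 0.30. Among GADD45 relatives and cytosine deaminases, 0 of 6 passed 2-fold. Apobec3 was 1.78-fold lower (1.53 to 2.08), Apobec1 1.48-fold higher (1.19 to 1.85) and Gadd45gip1, whose product binds GADD45 proteins and works in mitochondria, 1.74-fold lower (1.56 to 1.93). In the methyl donor cycle 0 of 13 passed 2-fold. Mat2a, which makes the donor S-adenosylmethionine, was 1.70-fold higher (1.60 to 1.79), and Ahcy, which clears its product, 1.30-fold lower (1.23 to 1.37). The serine hydroxymethyltransferase genes Shmt1 (1.78-fold, 1.40 to 2.27) and Shmt2 (1.56-fold, 1.47 to 1.65) were lower.

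Values of other programmes stood beside those of the 10 genes. Over all genes past the minimum, 4.47% were 2-fold higher in the library labelled KO and 2.82% lower, to be set beside each count below. Of 16 S phase and proliferation genes, 0 were 2-fold higher and 1 lower, Mcm5 (2.24-fold, 2.05 to 2.44). In this list 10 stood below 0, where 5575 of 12382 genes did over all. The median was -0.08, or -0.22 after the GC and length correction. Tk1 (-0.93), Cdk1 (-0.53) and E2f1 (-0.50) were among those below 0, and Ccne1 (0.41), Top2a (0.36) and Mki67 (0.33) among those above. Corrected, Tk1 stood at -0.88, Cdk1 at -0.74, E2f1 at -0.17, Ccne1 at 0.46, Top2a at 0.003 and Mki67 at 0.15. Whether proliferation had a part in the lower Dnmt1 and Uhrf1 was not tested. Of 12 p53 target genes, to which Gadd45a also belongs, 0 passed 2-fold and 6 stood on each side of 0, from Btg2 (-0.95) and Phlda3 (-0.76) to Eda2r (0.83), with Cdkn1a at -0.07. After the GC and length correction Btg2 was 2-fold lower (-1.12), so that 1 of the 12 passed. Of 12 macrophage markers 11 were 2-fold higher in the library labelled KO, with a median log2 ratio of 1.94, and their sum went from 506 to 1566 CPM, none being at 0 in either library. Of the 11, Itgam, with 8 and 81 counts, passed the minimum only through the library labelled KO. Of 9 endothelial markers past the minimum 5 were 2-fold higher and 0 lower, but 3 of the 5, Pecam1 (38 and 104 counts), Kdr (8 and 58) and Tie1 (19 and 57), passed it only through the library labelled KO, and Cldn5 (16 and 9) did not pass. The other 2 were Cdh5 (175 and 576) and Flt1 (71 and 170), while Egfl7 (463 and 295) and Emcn (212 and 163) had log2 ratios of -0.52 and -0.25, and the sum of all 10 went from 45.3 to 67.3 CPM. Fibroblast markers had 0 of 9 past 2-fold in either direction (median 0.20). In such bulk RNA a different number of cells of a type and a different amount of RNA per cell cannot be told apart, and the part of these markers in the values of Tdg, Dnmt3a, Tet3 and Gadd45a was not tested.

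**Figure D5:**
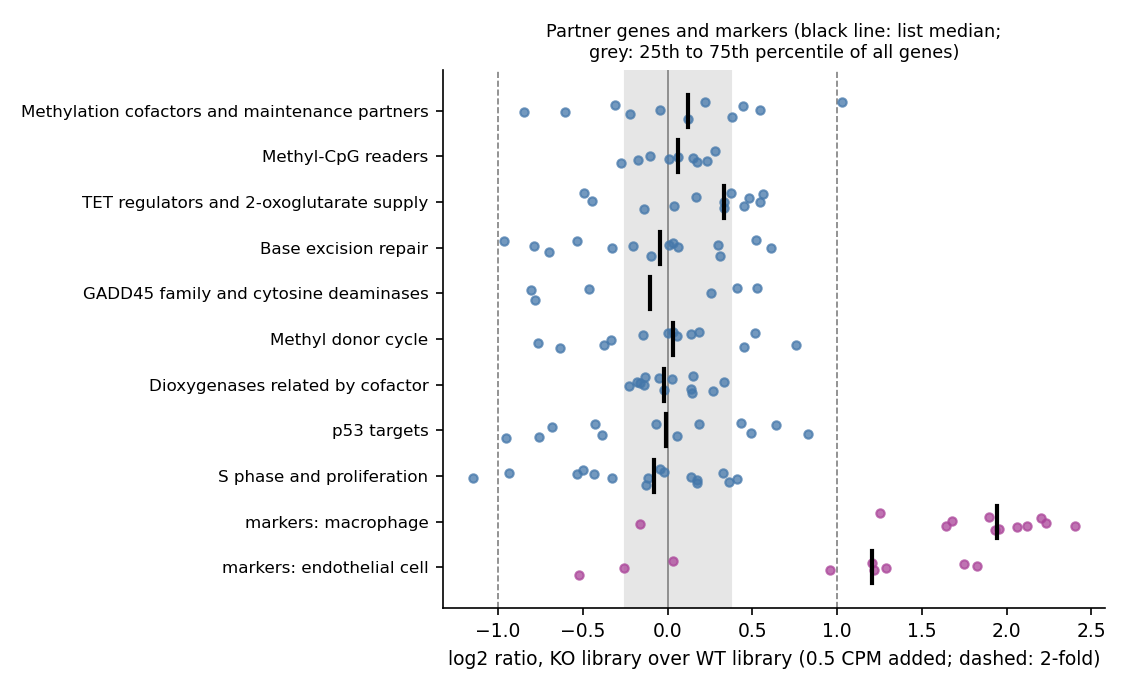
Log2 ratio, library labelled KO over library labelled WT with 0.5 CPM added, of each gene past 50 counts in 9 lists of partner genes (blue) and in macrophage and endothelial markers (purple). Black lines are list medians, from -0.10 to 0.33 in the partner lists against 1.94 and 1.21 in the markers; the grey band is the 25th to 75th percentile of all genes and dashed lines mark 2-fold.

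Promoters of the 10 genes, 250 bases before to 50 after each start in RefSeq (GRCm38.p6), were compared for sequence features. All 10 genes matched, with 15 starts. Of the 15 starts, 9 had an observed to expected CpG ratio of 0.6 or more, as 35.8% of all 32851 promoters did, and Gadd45a and Tet3 had no such start. Letters typical of sites for E2F, the factor of S phase genes (TTTCGCGC, TTTGGCGC, TTTCCCGC or TTTGCCGC, on either strand), occurred in 2.26% of all promoters. Among the 10 genes they occurred in Dnmt1, with 2 matches at the third of its starts (chr9:20952825-20952852 and chr9:20952574-20952600, minus strand), and in Uhrf1, with 1 at the second (chr17:56304118-56304145, plus strand). These are shown because Dnmt1 and Uhrf1 act as a pair and both were lower, Dnmt1 only slightly. The log2 ratio of Dnmt1 (-0.21) lay within the 25th to 75th percentile of all genes, -0.25 to 0.37. After the GC and length correction Dnmt1 stood at -0.08 and Uhrf1 at -0.55. A part of E2F in these values was not tested. The share of 2.26% is per promoter at any CpG ratio, while each of the sequences searched holds CG. The starts with a match had CpG ratios of 0.910 (Dnmt1) and 0.959 (Uhrf1). That share is therefore not a like background for them. Capitals mark the match, read on the strand of the gene, and factor binding was not measured.
Dnmt1 first match: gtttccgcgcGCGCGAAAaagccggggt
Dnmt1 second match: cggggcagcgTTTGGCGCgggctgtgc
Uhrf1 match: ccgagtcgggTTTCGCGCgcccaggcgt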

How the data were processed

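Per the file headers, the authors deposited a read count and an FPKM value for every gene; the authors' counts were used as deposited and their FPKM values to compare genes and as an alternative. Per the labels' protocols, ribosomal RNA was removed from total RNA and the library kit (NEBNext Ultra) does not mark strand. HISAT2 and the build mm10 (GRCm38) are named, per the submitters' processing notes; the counter and annotation release were not given in the sources used here. Of 52636 genes, 4 were dropped whose count per FPKM was unequal between tables beyond 1%, and 52403 had an identifier in GENCODE M21.

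Counts were divided by the library totals (26805902 and 24876925). Log2 ratios were taken after adding 0.5 CPM, for genes that reached 50 counts in at least 1 library, and called at 2-fold. Folds are CPM ratios with 95% exact (Clopper-Pearson) counting intervals, levels have exact Poisson intervals, and changes of within-library ratios have conditional exact intervals. These intervals cover counting error only, since without molecular identifiers reads are no count of molecules. Shared sequence was measured as identical windows of 50 and 100 bases between annotated transcripts. Partner genes named come from the 3 furthest from a log2 ratio of 0 and at most 2 of highest FPKM in each list; others were chosen after their values were seen. Where a symbol had 2 rows the one with more counts was used, and Dcaf1 was matched through a synonym. The members and lists were chosen with earlier results of these data known. The intervals and calls were tried on simulated Poisson counts with known folds. These held no spread between replicates, no GC trend and no shared reads, so they say nothing on those. Alternatives were TMM (edgeR 4.0.16) and median-of-ratios scaling, totals without the most counted genes, other pseudocounts, minima and thresholds, FPKM, a GC and length correction and other member sets; counting Tdg together with Gm9855 was chosen after seeing the data. Python 3.11.15, scipy 1.17.1 and R 4.3.3 were used. Some genes of the lists are counted but not reported by name here.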

Additional observations from a re-analysis of the deposited data

How the results depend on the processing

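The number of the 10 genes past 2-fold was 1 under every alternative of scaling, pseudocount, count minimum, FPKM and GC and length correction. It was also 1 with Tdg and Gm9855 counted together, and when the whole counting interval, with Tdg counted alone, had to lie beyond 2-fold. Counted together, the pair had an interval of 1.83 to 2.54, which does not lie wholly beyond 2-fold. The number was 3 at 1.5-fold and 0 at 4-fold. The difference between the median log2 ratio of the targets and of the other genes was 0.90, and ran from 0.56 with no count minimum, which takes in Dnmt3b and Tet1, to 0.91 with 0.1 CPM added; without Tdg it was 0.82. Each of the 8 genes past the minimum kept its sign under the alternatives run. Tdg ran from 1.06, counted with Gm9855, to 1.86, and Mbd4 from -0.97 after the GC and length correction to -0.41. The median of all genes was 0.06, 0.03 with TMM factors and 0.00 with median-of-ratios factors. No paired analysis was possible because the groups share a single replicate number. Depth limits Dnmt3b and Tet1, whose intervals span more than a 2-fold range, and the lack of replicates limits every value.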

Other observations

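Genes whose 3' UTR is as rich in miR-29 seed matches as those of the TET genes and Dnmt3a are few. Of the 11 protein-coding genes with 5 or more heptamers, 10 passed 50 counts, and Tet1 was the one that did not. Of the 10, 8 had a log2 ratio above 0, 1 was past 2-fold higher and 0 were past 2-fold lower, with a median of 0.52, where 11585 protein-coding genes searched had a median of 0.07, with 55.6% of them above 0 and 4.45% 2-fold higher. The values ran from 1.05 for D10Wsu102e, 0.75 for Sestd1 and 0.74 for D1Ertd622e, through 0.60 for Dnmt3a, 0.59 for Igsf9b and 0.45 for Tet3, to -0.31 for Tet2. Igsf9b and Tet3 had 8 heptamers each. Corrected for GC content and length, the 10 had a median of 0.44, 4 of them, including Tet2, were below 0, and D10Wsu102e (0.80) was no longer past 2-fold, which leaves 0. The cut at 5 was chosen after the site counts were seen, since it is the lowest number in Tet1, Tet2, Tet3 and Dnmt3a, and 3 of the 10 are among the genes described above. Genes with 3 or more heptamers, 62 in all, had a median of 0.14, and with 1 or more, 1860 genes, 0.14.

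Among the partner genes, 23 of 106 past the minimum held a heptamer, of which 15 had a log2 ratio above 0 and 8 below, with a median of 0.14 that was 0.03 after the GC and length correction. The 83 without one had medians of 0.01 and -0.11. Over all 1860 protein-coding genes past the minimum with a heptamer, 63.2% stood above 0, with medians of 0.14 and 0.05. The 23 partner genes were thus near the values of all such genes. With a site, Mat2a stood at 0.76 (0.39 after the correction) and the ligase gene Lig3, which closes the repaired strand, at 0.52 (0.34). Btg2 stood at -0.95 (-1.12). With 2 heptamers, Kdm2a stood at 0.14 (-0.03) and Bbc3 at -0.68 (-0.35).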
